A study of Mus musculus with 12 samples.

Results

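The data set 3 RNA libraries of cells taken 48 h after 12 Gy (12Gy_48h) against 3 libraries of cells taken 24 h after the same dose (12Gy_24h), so that the dose was fixed and the time after it differed. These 6 of the 12 libraries of the series were chosen by the dose and the harvest time in their labels. The cells were MODE-K, an epithelial line from mouse small intestine, labelled wild type and irradiated with gamma rays of 60Co. The other libraries, 3 of cells taken 48 h after 4 Gy (4Gy_48h) and 3 of unirradiated cells taken at 0 h (control), entered the estimate of the spread and are given beside a few results. The series title names pyroptosis, the lytic death in which inflammatory caspases cut gasdermins into pore-forming fragments. The labels speak of 3 parallel groups a dose but not of separate cultures. Each p-value therefore measures the spread between libraries, which may be technical. No unirradiated library of 24 h or 48 h was analysed here, so time after irradiation and time in culture cannot be told apart.

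Ionizing radiation breaks DNA, and p53 then induces genes of arrest, repair and death within hours. Days later, DNA fragments and RNA in the cytosol can engage sensors that induce type I interferon. Interferon acts through transcription factors of the STAT and IRF families on a large set of antiviral genes. Cells under such stress can also raise the chaperones of the endoplasmic reticulum, alter iron uptake and glycolysis, and lower the making of ribosomes.

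The 6 libraries held 3628034, 3724835 and 3616416 assigned reads at 12Gy_48h, against 3953638, 3831703 and 3782391 at 12Gy_24h. Values per library are given as CPM, counts per 1e6 assigned reads of the library divided by its TMM factor. Fold changes are on the log2 scale, 12Gy_48h over 12Gy_24h, and come from edgeR's quasi-likelihood fit after TMM scaling. TMM factors ran from 1.06 to 1.065 at 12Gy_48h and from 0.9124 to 0.9594 at 12Gy_24h. The CPM given here therefore lie below the unscaled CPM at 12Gy_48h and above them at 12Gy_24h. A gene was called at a Benjamini-Hochberg adjusted p under 0.05. The 100 most abundant genes took 36.1 ± 0.208% of the reads at 12Gy_48h and 39.6 ± 0.149% at 12Gy_24h (SD, n = 3 each), and the read-weighted transcript length was 1251 ± 3.14 nucleotides at 12Gy_48h and 1205 ± 3.2 at 12Gy_24h. The label of an epithelial line had little support in its defining markers: of 10 epithelial markers 4 had 0 reads in all 6 libraries, Epcam and Cdh1 had at most 1 read in any, and the 10 summed to 15.4 to 18.4 CPM at 12Gy_48h, against 26.6 to 28.2 CPM at 12Gy_24h. The intestinal lineage list had no member that passed the filter on low counts, with 14 of 28 at 0 in all 6 libraries.

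Of 15086 genes tested, 3102 were higher (20.6%) and 1723 lower (11.4%) at 12Gy_48h. The count of higher genes fell to 2066 without 12Gy_24h replicate 2. The split rested on loci that the authors assembled and that have no Ensembl gene (new loci): 2069 of 4898 were higher (42.2%) and 124 lower (2.53%), with a median log2 fold change of 0.89. New loci took 14.7 ± 0.606% of the reads at 12Gy_48h and 11.9 ± 0.0571% at 12Gy_24h (exact two-sided permutation test, p = 0.1, the smallest that 3 against 3 allows). They took 15.8 ± 0.947% at 4Gy_48h and 21.0 ± 1.03% in the controls. Against control their median log2 fold change was -1.87 at 12Gy_24h and -0.91 at 12Gy_48h, so that both groups lay below control. The median level of new loci was 3.19 CPM, against 18.2 CPM for known genes. Among 9809 known genes in the same fit 978 were higher (9.97%) and 1534 lower (15.6%), with a median of -0.06. These 2 shares are the background for the list counts below, for this fit with all libraries only. Calls over all genes moved with the setting, to 2745 higher and 2213 lower under RLE scaling. With 1 library left out, 2066 to 3058 of all genes were higher and 1190 to 1899 lower. List counts of this fit under RLE scaling or with a library left out have no share of known genes beside them. The 3 values of 1 group did not overlap those of the other in 17.4% of known genes with 12Gy_48h higher and in 25.9% with it lower.

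Scaled and tested alone, 9816 known genes gave a nearly even split, 1090 higher (11.1%) and 1240 lower (12.6%), with a median of -0.01. All 978 known genes called higher in the first fit were also called higher alone, and 1240 of the 1534 called lower were also called lower. The counts alone moved most when a 12Gy_48h library was left out, to 602 higher and 671 lower without replicate 2 and to 810 lower without replicate 1. RLE scaling put the median of the known genes in the fit to all genes at -0.134. Every fold change given later is that of the first fit, and a known gene is said to have risen or fallen only where it was also called with known genes alone, unless a value says otherwise.

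**Figure D1:**
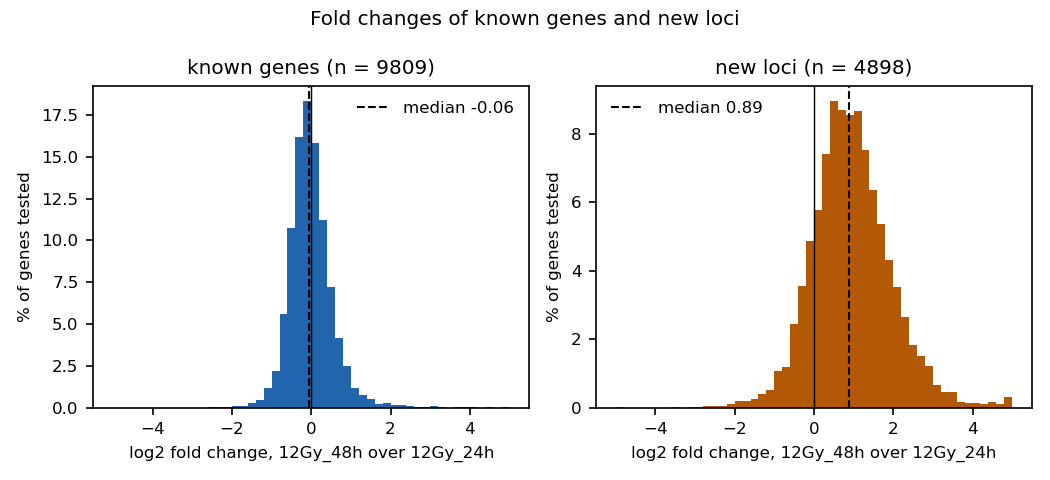
Distribution of log2 fold changes (12Gy_48h over 12Gy_24h, bins of 0.2) as a percentage of the known genes and of the new loci tested, with values beyond 5 drawn in the end bins. The dashed lines are the medians, -0.06 for the known genes and 0.89 for the new loci.

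Interferon-stimulated effectors rose almost throughout the list: 42 of 46 tested members were higher and 1 was lower, with a median of 1.71. Each of the 6 libraries could be left out with at least 40 members still called higher. Ifit3 encodes a tetratricopeptide protein of the complex that binds viral RNA and had 42.9, 49.3 and 64.1 CPM at 12Gy_48h, against 1.85, 4.38 and 4.06 CPM at 12Gy_24h. Rsad2, whose product viperin makes an antiviral nucleotide, had 43.1, 49.3 and 63.9 CPM at 12Gy_48h, against 7.12, 5.47 and 7.24 CPM at 12Gy_24h. In both genes every 12Gy_48h library lay above every 12Gy_24h library, with replicate 3 the highest at 12Gy_48h, and the log2 fold changes were 3.92 ± 0.26 (SE, adjusted p = 1.16e-07) and 2.97 ± 0.19 (SE, adjusted p = 1.16e-07). Bst2, which encodes tetherin, had 1119, 1244 and 1315 CPM at 12Gy_48h, against 328, 395 and 394 CPM at 12Gy_24h, a log2 fold change of 1.72 ± 0.14 (SE, adjusted p = 6.19e-07). Oasl1, of the oligoadenylate synthetase-like family, rose by 1.87 ± 0.15 log2 units (SE, adjusted p = 6.19e-07). Cmpk2, a mitochondrial nucleotide kinase gene, and Ifi27l2a were among the 12 largest rises, at 3.10 log2 units (adjusted p = 6.10e-05) and 3.32 log2 units (adjusted p = 3.75e-06). Epsti1, named because it was the single member called lower and chosen after its values were seen, had 4.16, 3.29 and 5.45 CPM at 12Gy_48h, against 11.1, 14.0 and 13.6 CPM at 12Gy_24h, a log2 fold change of -1.58 ± 0.25 (SE, adjusted p = 0.000255). Ifi27, Ifit2 and Eif2ak2, named after their values were seen, did not pass the test, at -0.08 log2 units (adjusted p = 0.687), 0.29 log2 units (adjusted p = 0.462) and 0.33 log2 units (adjusted p = 0.119). The share of reads between Ifit3 and its near copy Ifit3b is uncertain.

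Short promoter windows of 4 of the interferon-responsive genes named here are shown because the same core stands in each. They were taken from RefSeq (GRCm38.p6), run 5′ to 3′ on the gene's strand and lie outside annotated exons. Capitals mark the core of the interferon-stimulated response element on either strand, here GAAA and GAAA parted by 2 bases of any kind. The windows are Ifit3 at chr19:34583360-34583429, plus strand, Rsad2 at chr12:26456533-26456602, minus strand, Tgtp1 at chr11:48992284-48992353, minus strand, and Cxcl10 at chr5:92349063-92349132, minus strand.
Ifit3: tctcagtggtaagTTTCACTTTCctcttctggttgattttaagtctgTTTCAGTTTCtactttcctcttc
Rsad2: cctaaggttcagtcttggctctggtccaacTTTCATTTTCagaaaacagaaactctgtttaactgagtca
Tgtp1: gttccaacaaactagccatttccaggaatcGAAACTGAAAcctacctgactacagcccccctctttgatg
Cxcl10: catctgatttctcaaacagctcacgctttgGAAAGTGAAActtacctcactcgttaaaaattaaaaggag
In the 250 bases before the start this core, read on both strands, was found in 13 of the 36 effectors with a promoter sequence (36.1%) and in 9 of 9 interferon-induced GTPases. It was found in 3.46% of 27025 genes with a promoter sequence. Those include genes not tested here, whereas the lists hold tested genes only. For this and the later motifs the share over tested genes alone was not computed. It was found in 3 of 15 genes of class I presentation and in 0 of 18 glycolysis genes. A match is a description of letters, not of binding.

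Signal transducers and sensors moved in part. Of 17 tested ligand, receptor and transducer genes 7 were higher and 1 was lower, with a median of 0.32. Irf7, the transcription factor that drives most type I interferon genes (chromosome 7, 141262706 to 141266481, GRCm38), had 247, 254 and 304 CPM at 12Gy_48h, against 38.2, 39.97 and 55.6 CPM at 12Gy_24h. The groups did not overlap, and the log2 fold change was 2.59 ± 0.21 (SE, adjusted p = 8.34e-07). Irf7 overlaps Phrf1 on the other strand, and strand use in counting is not stated. Stat2 and Irf1, transcription factors of the response, rose by 2.00 log2 units (adjusted p = 2.38e-06) and 0.85 log2 units (adjusted p = 0.00558). Irf3, the single member called lower and named after its values were seen, changed by -0.52 log2 units (adjusted p = 0.0124); its adjusted p with 1 library left out reached 0.0501. Ifnb1, the gene of interferon beta, did not pass the filter on low counts: it had 3, 2 and 2 reads at 12Gy_48h, against 1, 3 and 1 reads at 12Gy_24h.

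Among 16 tested nucleic acid sensing genes 9 were higher and 0 lower, with a median of 0.70. Zbp1, a sensor of Z-form nucleic acid that can start pyroptosis and necroptosis (chromosome 2, 173206612 to 173218923, GRCm38), had 59.0, 65.0 and 78.4 CPM at 12Gy_48h, against 3.96, 4.93 and 6.95 CPM at 12Gy_24h. The lowest 12Gy_48h library was above the highest 12Gy_24h library by a wide margin, and the log2 fold change was 3.68 ± 0.25 (SE, adjusted p = 1.16e-07). Dhx58, which encodes the RIG-I-like receptor LGP2, had 19.5, 19.7 and 19.2 CPM at 12Gy_48h, against 2.11, 4.38 and 2.32 CPM at 12Gy_24h, a log2 fold change of 2.72 ± 0.25 (SE, adjusted p = 1.63e-06). Adar, the RNA-editing enzyme that keeps self RNA from Zbp1 and other sensors, rose by 0.92 log2 units (adjusted p = 0.000214), and the DNA sensor gene Ifi204 by 1.02 log2 units (adjusted p = 0.000548). RLE scaling moved the list's counts to 8 higher and 1 lower.

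The interferon-induced GTPases, which attack the membranes of intracellular pathogens, were called higher in 12 of 12 tested members, with a median of 2.99. Tgtp1 had the largest rise among known genes called in both fits, without overlap and with a mean of at least 5 CPM in the higher group, with 15.1, 18.2 and 21.3 CPM at 12Gy_48h, against 0, 1.37 and 1.16 CPM at 12Gy_24h, a log2 fold change of 4.41 ± 0.42 (SE, adjusted p = 2.38e-06); Tgtp2 is a near copy. Gbp2 and Gbp3, guanylate-binding proteins, had 27.6, 33.9 and 41.3 CPM and 57.4, 57.2 and 81.5 CPM at 12Gy_48h, against 3.96, 4.38 and 3.48 CPM and 6.86, 7.12 and 10.7 CPM at 12Gy_24h. Their log2 fold changes were 3.11 ± 0.27 (SE, adjusted p = 1.02e-06) and 2.99 ± 0.29 (SE, adjusted p = 2.38e-06). Gbp4 and Gbp9, which overlap on the same strand, were also among the largest rises at 3.52 log2 units (adjusted p = 0.000108) and 3.12 log2 units (adjusted p = 0.000772), and Irgm1 rose by 1.57 log2 units (adjusted p = 6.75e-06). Gvin1, named after its values were seen, had 68, 0 and 60 reads at 12Gy_48h and 0 in each 12Gy_24h library. With its 12Gy_24h total set to 3 counts as the floor for the group, its depth-scaled ratio (by library totals, without TMM factors) was at least 45.0. However, 1 of the 3 libraries at 12Gy_48h had none. Gvin1 remained the largest value of the list at that bound, so the list median of 2.99 could not change with it.

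Class I antigen presentation followed, with 13 of 18 tested genes higher, 0 lower and a median of 1.18; with known genes alone 15 were higher. H2-K1, a class I heavy chain, had 434, 438 and 418 CPM at 12Gy_48h, against 141, 151 and 155 CPM at 12Gy_24h, a log2 fold change of 1.53 ± 0.15 (SE, adjusted p = 3.24e-06). Tapbp, the peptide-loading chaperone tapasin, had 76.9, 91.1 and 77.9 CPM at 12Gy_48h, against 19.2, 18.9 and 17.1 CPM at 12Gy_24h, a log2 fold change of 2.15 ± 0.23 (SE, adjusted p = 7.39e-06). The immunoproteasome subunit gene Psmb8 had 26.2, 30.1 and 27.5 CPM at 12Gy_48h, against 5.27, 5.20 and 7.24 CPM at 12Gy_24h, a log2 fold change of 2.24 ± 0.25 (SE, adjusted p = 1.03e-05). For these 3 genes the 2 groups of libraries did not overlap. The peptide transporter gene Tap1, which overlaps Psmb9 on the other strand, rose by 1.49 log2 units (adjusted p = 1.61e-05); Tapbp overlaps Zbtb22 on its own strand. Of 30 constitutive proteasome genes 11 were lower and 0 higher. The count lower was 7 with known genes alone, 5 without 12Gy_48h replicate 1 and 6 without 12Gy_48h replicate 2. In the fifth of known genes with the highest mean CPM 36.0% were called lower, and the part of level in this count was not tested.

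Secreted defence genes were few. Of 25 chemokine and cytokine genes 7 passed the filter, of which 2 were higher and 1 lower. Ccl5, a chemokine for T cells, had 87.1, 102 and 80.7 CPM at 12Gy_48h, against 15.3, 15.9 and 19.99 CPM at 12Gy_24h, and Cxcl10, an interferon-induced chemokine, had 31.4, 37.7 and 43.1 CPM at 12Gy_48h, against 11.9, 7.67 and 9.27 CPM at 12Gy_24h. Both rose without overlap, by 2.40 ± 0.25 log2 units (SE, adjusted p = 6.81e-06) and 1.96 ± 0.31 (SE, adjusted p = 0.000194). Il24, of the interleukin 10 family, had 0.780, 1.52 and 0.260 CPM at 12Gy_48h, against 3.43, 5.75 and 4.93 CPM at 12Gy_24h, a log2 fold change of -2.41 ± 0.51 (SE, adjusted p = 0.00202). The 5 tested complement and acute-phase genes were all called higher, but only 3 of them were without each library other than 12Gy_48h replicate 3. The 5 summed to 37.69, 42.25 and 24.66 CPM at 12Gy_48h, against 4.48, 6.84 and 4.35 CPM at 12Gy_24h. They summed to 63.7, 13.97 and 31.09 CPM at 4Gy_48h and 29.03, 266.1 and 60.41 CPM in the controls, so that 12Gy_24h was the lowest group. Against control their median log2 fold change was 0.72 at 12Gy_48h and -1.71 at 12Gy_24h. Cfb, complement factor B of the alternative pathway, had 4.42, 7.34 and 8.05 CPM at 12Gy_48h, against 0, 0.547 and 0.580 CPM at 12Gy_24h, a log2 fold change of 4.05 ± 0.53 (SE, adjusted p = 4.19e-05). C1s1 had 31 reads at 12Gy_48h and 3 at 12Gy_24h, a depth-scaled ratio of 10.9 with a 95% counting interval of 3.4 to 55.7. Lcn2, which encodes the siderophore-binding protein lipocalin 2, had 21.3, 23.02 and 5.97 CPM at 12Gy_48h, against 1.58, 0.821 and 0.290 CPM at 12Gy_24h; its adjusted p of 0.0332 reached 0.101 with 1 library left out. C4b changed by 0.92 log2 units (adjusted p = 0.032), reaching 0.138 in the same way.

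**Figure D2:**
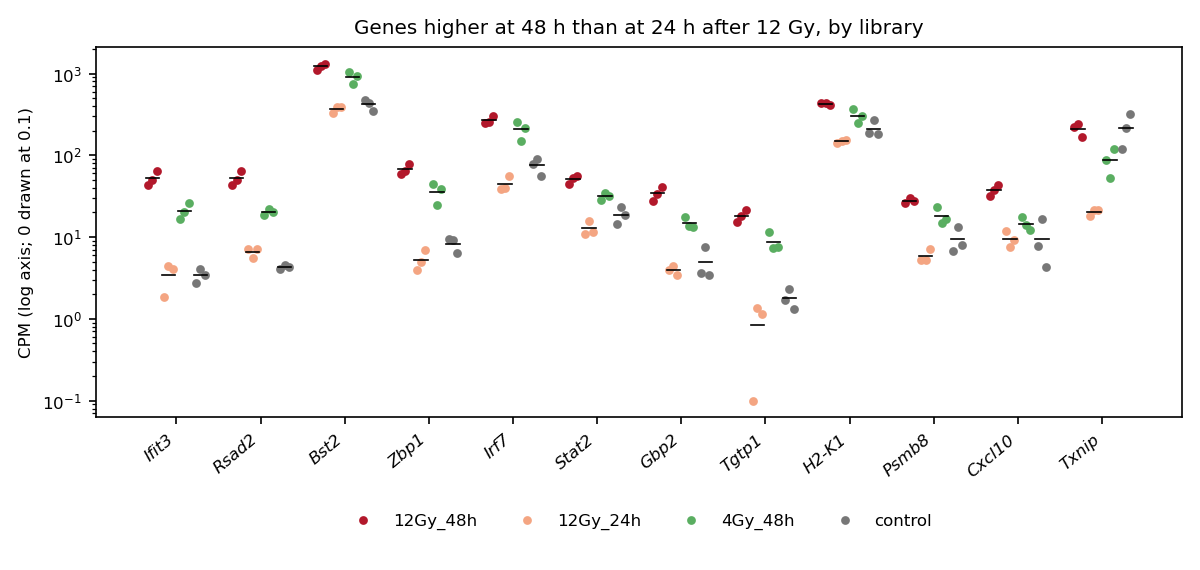
CPM on a log axis in each library (points, 3 a group) with group means (lines; values of 0 drawn at 0.1) for 12 genes higher at 12Gy_48h, with 12Gy_48h, 12Gy_24h, 4Gy_48h and control from left to right within a gene. In each gene the 12Gy_48h points lie above the 12Gy_24h points; Txnip is at 223, 241 and 167 CPM at 12Gy_48h and 17.9, 21.6 and 21.7 CPM at 12Gy_24h.

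Genes of lytic death were mostly not called. Of 16 tested pyroptosis genes 4 were higher and 1 was lower, against the 9.97% and 15.6% of all known genes. Of the 4, Zbp1 and Txnip are described with other lists. With known genes alone 4 were higher and 0 lower, and with 1 library left out 0 to 3 members were lower. Casp4, the mouse inflammatory caspase that senses cytosolic lipopolysaccharide, had 20.3, 24.0 and 13.0 CPM at 12Gy_48h, against 1.58, 4.65 and 2.90 CPM at 12Gy_24h, a log2 fold change of 2.64 ± 0.55 (SE, adjusted p = 0.00186). P2rx7, an ATP-gated channel, changed by 0.86 log2 units (adjusted p = 0.0244), but 4 of the 6 libraries cost the call when left out. The executioner Gsdmd had 1.82, 5.31 and 3.38 CPM at 12Gy_48h, against 1.05, 2.74 and 2.90 CPM at 12Gy_24h, and Gsdme had 8.58, 11.6 and 17.6 CPM at 12Gy_48h, against 14.8, 18.1 and 25.5 CPM at 12Gy_24h. The groups overlapped in both, with log2 fold changes of 0.66 ± 0.45 (SE, adjusted p = 0.282) and -0.62 ± 0.26 (SE, adjusted p = 0.0759). Casp1, which cuts Gsdmd, had 29.6, 25.1 and 26.5 CPM at 12Gy_48h, against 22.4, 27.1 and 26.4 CPM at 12Gy_24h, a log2 fold change of 0.10 ± 0.16 (SE, adjusted p = 0.668). Named after their values were seen, Pycard and Il1b, the adaptor and a cytokine substrate of Casp1, had 0 reads in all 6 libraries, and Nlrp3 had 3, 3 and 1 reads at 12Gy_48h, against 6, 4 and 10 at 12Gy_24h. Il18, another substrate, also failed the filter on low counts and was named after its values were seen, with 7, 20 and 9 reads at 12Gy_48h, against 2, 0 and 1 at 12Gy_24h. RLE scaling, which also raised the lower calls over all genes, raised the pyroptosis genes called lower to 5.

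Of 15 tested necroptosis genes Zbp1 was the 1 called higher and 2 were lower, neither share above that of all known genes. Without 12Gy_48h replicate 2 the count lower was 1. Pgam5, a mitochondrial phosphatase gene, changed by -0.75 log2 units (adjusted p = 0.00251). Ripk3, the kinase through which Zbp1 starts necroptosis and also named after its values were seen, had 0 reads in all 6 libraries. Of 18 intrinsic apoptosis genes 1 was higher and 3 lower, against the 9.97% and 15.6% of all known genes. The count lower was 2 with known genes alone and 1 without 12Gy_48h replicate 2 or 3 or 12Gy_24h replicate 1. Bid, a pro-apoptotic BH3 gene that overlaps Bcl2l13 on the other strand, had 42.9, 42.2 and 52.7 CPM at 12Gy_48h, against 64.1, 73.4 and 83.5 CPM at 12Gy_24h, a log2 fold change of -0.68 ± 0.13 (SE, adjusted p = 0.00129). Bbc3 (PUMA) changed by 0.80 log2 units (adjusted p = 0.018), a call lost in 4 of the 6 cases in which 1 library was left out, with adjusted p up to 0.105.

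The p53 list rose in part: 12 of 33 tested targets were higher and 2 lower, with a median of 0.38. Against control the median of the list was 0.02 at 12Gy_48h, -0.33 at 12Gy_24h and -0.19 at 4Gy_48h. Mdm2, the ubiquitin ligase that p53 induces and that degrades it, had 185, 214 and 157 CPM at 12Gy_48h, against 87.0, 84.3 and 81.1 CPM at 12Gy_24h, a log2 fold change of 1.14 ± 0.14 (SE, adjusted p = 2.51e-05) without overlap. Cdkn1a, the p21 inhibitor of cyclin-dependent kinases and the best known p53 target, had 418, 427 and 413 CPM at 12Gy_48h, against 390, 406 and 430 CPM at 12Gy_24h. The groups overlapped, and the log2 fold change of 0.04 ± 0.14 (SE, adjusted p = 0.862) turned negative under RLE scaling, at -0.04. Trp53 itself had 35.1, 27.6 and 31.7 CPM at 12Gy_48h, against 31.9, 30.7 and 27.2 CPM at 12Gy_24h, a log2 fold change of 0.07 ± 0.13 (SE, adjusted p = 0.728), which turned to -0.01 under RLE scaling. Ephx1 (epoxide hydrolase), Phlda3 (an inhibitor of AKT) and Gtse1 (a p53 regulator of G2) rose by 0.89 log2 units (adjusted p = 0.00011), 0.80 log2 units (adjusted p = 0.000714) and 0.73 log2 units (adjusted p = 0.00136).

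Endoplasmic reticulum chaperones and their regulators rose together, in 16 of 22 tested genes with 1 lower and a median of 0.61. Hspa5, the chaperone BiP (chromosome 2, 34771970 to 34777547, GRCm38), had 1536, 1412 and 921 CPM at 12Gy_48h, against 439, 457 and 375 CPM at 12Gy_24h. The 12Gy_48h libraries were all above the 12Gy_24h libraries, with replicate 3 the lowest of the 12Gy_48h libraries, and the log2 fold change was 1.60 ± 0.24 (SE, adjusted p = 0.000153). Calr, the calcium-binding chaperone calreticulin, had 622, 658 and 567 CPM at 12Gy_48h, against 289, 328 and 352 CPM at 12Gy_24h, a log2 fold change of 0.93 ± 0.12 (SE, adjusted p = 4.50e-05). Hyou1 and Creld2 rose by 1.10 log2 units (adjusted p = 0.00031) and 1.01 log2 units (adjusted p = 0.00013). Atf6, a sensor of the unfolded protein response and the 1 member called lower, was named after its values were seen, at -0.54 log2 units (adjusted p = 0.00736). The count of higher genes was 10 without 12Gy_24h replicate 2.

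Calr and Creld2 windows follow because the endoplasmic reticulum stress element, here CCAAT and CCACG parted by 9 bases of any kind, stands in both; capitals mark it on either strand. They lie at chr8:84847050-84847119, minus strand, and chr15:88819494-88819563, plus strand, in the same RefSeq build.
Calr: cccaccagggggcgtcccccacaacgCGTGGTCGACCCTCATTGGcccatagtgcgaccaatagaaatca
Creld2: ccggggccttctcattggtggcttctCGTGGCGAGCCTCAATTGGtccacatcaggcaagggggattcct
This element was found in 8 of 19 genes of the list, against 0.13% of the 27025 genes with a promoter sequence, tested or not. It was found in 0 of 36 interferon-stimulated effectors and 0 of 18 glycolysis genes.

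The ATF4 branch of the stress response split. Of 22 tested genes 5 were higher and 9 lower (6 lower with known genes alone). Mthfd2, a mitochondrial folate enzyme gene, had 114, 100 and 104 CPM at 12Gy_48h, against 212, 203 and 225 CPM at 12Gy_24h, and Psat1, of serine synthesis, had 190, 176 and 226 CPM at 12Gy_48h, against 346, 354 and 405 CPM at 12Gy_24h. Both fell without overlap, by 1.01 log2 units (adjusted p = 8.38e-05) and 0.90 log2 units (adjusted p = 0.000168). Chac1, which degrades glutathione, had 38.7, 34.2 and 34.5 CPM at 12Gy_48h, against 88.6, 79.9 and 100 CPM at 12Gy_24h, a log2 fold change of -1.32 ± 0.19 (SE, adjusted p = 8.85e-05). Ppp1r15a, the phosphatase subunit that reverses phosphorylation of eIF2α, had 169, 165 and 126 CPM at 12Gy_48h, against 73.0, 86.2 and 72.4 CPM at 12Gy_24h, a log2 fold change of 0.99 ± 0.15 (SE, adjusted p = 0.000198). The count of higher genes was 3 without 12Gy_48h replicate 1 or 2 or 12Gy_24h replicate 2 or 3. Among 17 tested heat shock genes 0 were higher and 5 lower, with 3 lower without 12Gy_48h replicate 2 or 3 and 1 higher without 12Gy_48h replicate 3 or 12Gy_24h replicate 1. With known genes alone 2 were higher and 3 lower; the 2 were Dnajb1 and Bag3, named after their values were seen, with adjusted p of 0.0409 and 0.0495 in that fit. Hsp90ab1 had 1110, 1129 and 1299 CPM at 12Gy_48h, against 1639, 1852 and 1982 CPM at 12Gy_24h, a log2 fold change of -0.63 ± 0.12 (SE, adjusted p = 0.00076). Hspd1, the mitochondrial chaperonin, changed by -0.60 log2 units (adjusted p = 0.000241); it shares a promoter region with Hspe1, which it overlaps on the other strand.

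**Figure D3:**
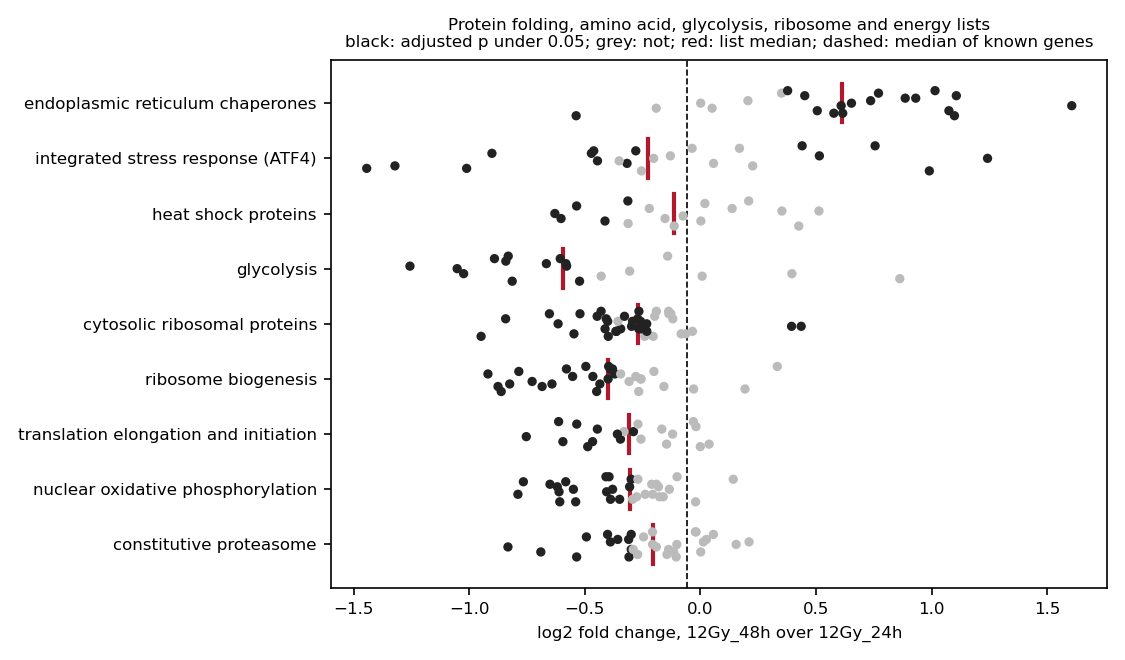
Log2 fold changes (12Gy_48h over 12Gy_24h) of every tested member of 9 lists, 1 point a gene, black where the adjusted p was under 0.05 and grey where it was not, with the list median in red and the median of known genes (-0.06) dashed. The chaperones of the endoplasmic reticulum lie mostly to the right of that line, and the glycolysis, ribosome, translation and oxidative phosphorylation genes mostly to the left.

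Glycolysis fell in 12 of 18 tested genes and rose in 0, with a median of -0.59 in the fit to all genes and -0.54 with known genes alone. Ldha, lactate dehydrogenase A, had 746, 749 and 841 CPM at 12Gy_48h, against 1449, 1541 and 1853 CPM at 12Gy_24h. Pgk1, phosphoglycerate kinase, had 794, 797 and 809 CPM at 12Gy_48h, against 1468, 1523 and 1889 CPM at 12Gy_24h. Slc16a3, the lactate exporter MCT4, had 22.9, 32.9 and 30.6 CPM at 12Gy_48h, against 61.2, 61.6 and 84.0 CPM at 12Gy_24h. None of the 3 genes had overlapping groups, 12Gy_24h replicate 3 was the highest library in each, and the log2 fold changes were -1.05 ± 0.14 (SE, adjusted p = 5.37e-05), -1.02 ± 0.12 (SE, adjusted p = 1.16e-05) and -1.26 ± 0.17 (SE, adjusted p = 7.31e-05). Eno1 fell by 0.67 log2 units (adjusted p = 0.000228). The summed level of the 18 genes was 6482, 6718 and 7309 CPM at 12Gy_48h, against 10420, 11210 and 13460 CPM at 12Gy_24h.

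Ldha and Pgk1 windows, at chr7:46845734-46845803, plus strand, and chrX:106186927-106186996, plus strand, show ACGTG, the core of the hypoxia response element, in capitals on either strand; adjoining matches run together, and the core can share letters with CACGTG boxes.
Ldha: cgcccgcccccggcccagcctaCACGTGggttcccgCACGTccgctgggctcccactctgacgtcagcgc
Pgk1: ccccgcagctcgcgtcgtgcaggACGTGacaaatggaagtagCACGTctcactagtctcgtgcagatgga
The core was found in 9 of 18 glycolysis genes, in 8 of 19 genes of endoplasmic reticulum chaperones and in 4 of 36 effectors. It was found in 18.5% of all genes with a promoter sequence, tested or not. Of 17 tested hypoxia-response genes outside glycolysis 5 were lower and 0 higher, and 3 were lower without 12Gy_48h replicate 1 or 12Gy_24h replicate 1 or 2. Bnip3l and Bnip3, of mitophagy, fell by 0.50 log2 units (adjusted p = 0.00311) and 0.77 log2 units (adjusted p = 0.00618).

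Txnip, the arrestin-like protein that limits glucose uptake and binds thioredoxin (chromosome 3, 96557957 to 96561883, GRCm38), had 223, 241 and 167 CPM at 12Gy_48h, against 17.9, 21.6 and 21.7 CPM at 12Gy_24h. Its lowest 12Gy_48h library, replicate 3, was far above the 12Gy_24h libraries, and the log2 fold change was 3.36 ± 0.33 (SE, adjusted p = 3.24e-06). Across the series Txnip averaged 210 ± 38.7 CPM at 12Gy_48h, 20.4 ± 2.17 at 12Gy_24h, 86.6 ± 32.9 at 4Gy_48h and 218 ± 100 in the controls (SD, n = 3 each), so that 12Gy_24h was the group with the lowest level.

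Genes of iron handling were lower where they were called over all genes. Tfrc, the transferrin receptor (chromosome 16, 32608920 to 32632794, GRCm38), had 15.1, 15.7 and 15.8 CPM at 12Gy_48h, against 59.1, 64.1 and 61.7 CPM at 12Gy_24h. The 3 libraries within each group lay close together, and the log2 fold change was -1.99 ± 0.21 (SE, adjusted p = 6.89e-06). Fth1, the ferritin heavy chain, had 4521, 4880 and 4623 CPM at 12Gy_48h, against 6387, 7110 and 7403 CPM at 12Gy_24h, a log2 fold change of -0.58 ± 0.11 (SE, adjusted p = 0.000953). Fbxl5, the iron-sensing ligase subunit, fell by 0.55 log2 units (adjusted p = 0.00805). In all 4 of 10 tested iron genes were lower and 0 higher; with known genes alone 3 were lower and 1 higher, the ferritin light chain gene Ftl1, named after its values were seen and at 0.24 log2 units (adjusted p = 0.052) over all genes. The fourth, the heme oxygenase gene Hmox1, had 208, 252 and 186 CPM at 12Gy_48h, against 296, 361 and 352 CPM at 12Gy_24h, at -0.64 log2 units (adjusted p = 0.0484) in the fit to all genes but at an adjusted p of 0.0771 with known genes alone.

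Of 31 tested NRF2 antioxidant genes 3 were higher and 6 lower, shares near those of all known genes. Prdx1 and Prdx6, peroxiredoxins, had 1416, 1403 and 1551 CPM and 350, 327 and 387 CPM at 12Gy_48h, against 1969, 2062 and 2274 CPM and 526, 528 and 587 CPM at 12Gy_24h. Both fell without overlap, by 0.53 log2 units (adjusted p = 0.000414) and 0.63 log2 units (adjusted p = 0.000572). Osgin1, an oxidative stress growth inhibitor, had 11.7, 16.9 and 13.5 CPM at 12Gy_48h, against 6.33, 6.02 and 4.06 CPM at 12Gy_24h, a log2 fold change of 1.35 ± 0.25 (SE, adjusted p = 0.000776). Nqo1, the quinone reductase used as a readout of NRF2, had 32.8, 45.8 and 23.6 CPM at 12Gy_48h, against 38.2, 41.9 and 40.6 CPM at 12Gy_24h; the groups overlapped, at -0.24 log2 units (adjusted p = 0.49). The higher genes were 1 in number without 12Gy_48h replicate 2 or 12Gy_24h replicate 1 or 3. Of the 15 ferroptosis genes 1 was higher and 3 lower, and of 25 cholesterol synthesis genes 1 was higher and 2 lower (1 without 12Gy_48h replicate 2). Among all known genes 9.97% were higher and 15.6% lower. The higher ferroptosis call was lost without each library other than 12Gy_48h replicate 3. Msmo1, a sterol oxidase gene, fell by 0.62 log2 units (adjusted p = 0.00202), and Insig1, which holds SREBP in the endoplasmic reticulum, rose by 1.57 log2 units (adjusted p = 0.00491).

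Genes that build and feed the ribosome were lower by small amounts. Of 40 cytosolic ribosomal protein genes 26 were lower and 2 higher, with a median of -0.27; with known genes alone 20 were lower, and under RLE scaling 30 were lower and 0 higher. The 2 higher were Rpl3 at 0.39 log2 units (adjusted p = 0.0365) and Rps27 at 0.44 log2 units (adjusted p = 0.0355), named after their values were seen. The count higher was 0 without 12Gy_48h replicate 2 or 12Gy_24h replicate 1 or 2, and 1 without each of the other libraries. The count lower ran from 19 to 30 with 1 library left out, and 14 genes were lower in both fits whichever library was left out. Rps29 had 2342, 2387 and 2862 CPM at 12Gy_48h, against 4860, 4625 and 5165 CPM at 12Gy_24h, and Rpl7 had 2109, 2114 and 2188 CPM at 12Gy_48h, against 3174, 3287 and 3362 CPM at 12Gy_24h. The groups did not overlap, and the log2 fold changes were -0.95 ± 0.13 (SE, adjusted p = 4.82e-05) and -0.62 ± 0.07 (SE, adjusted p = 1.54e-05). Of 30 ribosome biogenesis genes 19 were lower and 0 higher, with a median of -0.40. With known genes alone 17 were lower and 1, Utp20, named after its values were seen, was higher. With 1 library left out 14 to 22 were lower, and 8 were lower in both fits whichever library was left out. Npm1, the nucleolar protein nucleophosmin, had 1384, 1264 and 1352 CPM at 12Gy_48h, against 2118, 2171 and 2142 CPM at 12Gy_24h, a log2 fold change of -0.68 ± 0.08 (SE, adjusted p = 2.20e-05). The nucleolar helicase gene Ddx21 fell by 0.92 log2 units (adjusted p = 0.000106). Naf1, an assembly factor of box H/ACA ribonucleoproteins, was among the largest falls with 9.62, 7.08 and 7.79 CPM at 12Gy_48h, against 45.6, 32.3 and 22.3 CPM at 12Gy_24h, a log2 fold change of -2.03 ± 0.28 (SE, adjusted p = 5.80e-05). Of 20 translation factors 10 were lower and 0 higher, among them Eef1a1 at -0.49 log2 units (adjusted p = 5.97e-05) and Eif4a1 at -0.75 log2 units (adjusted p = 0.00029). With 1 library left out 8 to 12 of them were lower, and 7 were lower in both fits whichever library was left out.

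Of 31 nuclear oxidative phosphorylation genes 17 were lower and 0 higher, with a median of -0.31. With 1 library left out 12 to 19 were lower, and 9 were lower in both fits whichever library was left out. Atp5c1 and Atp5b, subunits of ATP synthase, fell by 0.79 log2 units (adjusted p = 4.01e-05) and 0.65 log2 units (adjusted p = 4.64e-05). Of 12 mitochondrially encoded genes 5 were lower, 4 with known genes alone. mt-Nd1, a subunit of complex I, had 120, 53.6 and 91.1 CPM at 12Gy_48h, against 425, 463 and 172 CPM at 12Gy_24h, a log2 fold change of -2.00 ± 0.40 (SE, adjusted p = 0.00136), and the spread within each group was wide. Fold change moved with transcript length and level over all known genes. The median was -0.15 in the fifth of known genes with the shortest transcripts and 0.04 in the fifth with the longest. It was 0.09 in the fifth with the lowest mean CPM and -0.22 in the fifth with the highest, where 36.0% were called lower. Ribosomal protein and respiratory genes are short and abundant. The part of length and level in the falls of these and the other lists was not tested.

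**Figure D4:**
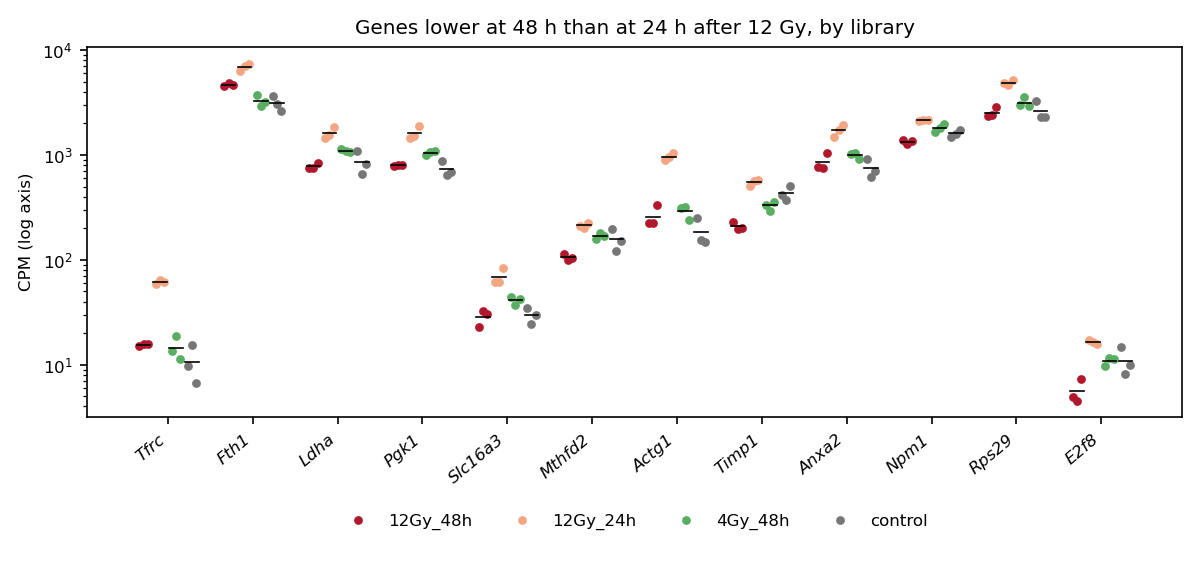
CPM on a log axis in each library (points, 3 a group) with group means (lines) for 12 genes lower at 12Gy_48h, with 12Gy_48h, 12Gy_24h, 4Gy_48h and control from left to right within a gene. In each gene the 12Gy_24h points lie above the 12Gy_48h points; Tfrc is at 15.1, 15.7 and 15.8 CPM at 12Gy_48h and 59.1, 64.1 and 61.7 CPM at 12Gy_24h.

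Cell cycle genes changed in a few members. Of 42 G1/S and replication genes 6 were lower and 0 higher, a share near the 15.6% of all known genes. Under RLE scaling, which also raised the lower calls over all genes, 13 were lower. The count lower was 3 without 12Gy_48h or 12Gy_24h replicate 1 and 10 without 12Gy_48h or 12Gy_24h replicate 3. E2f8, a repressor among the E2F factors, had 4.94, 4.55 and 7.27 CPM at 12Gy_48h, against 17.1, 16.4 and 15.7 CPM at 12Gy_24h, a log2 fold change of -1.55 ± 0.24 (SE, adjusted p = 0.000196). Ccnd1 and Ccne2, cyclins of G1, fell by 0.70 log2 units (adjusted p = 0.00125) and 1.06 log2 units (adjusted p = 0.00128); they overlap LTO1 and Ints8 on the other strand, which leaves their counts uncertain. Of 43 G2/M genes 4 were higher and 3 lower, neither share above that of all known genes. The count lower was 7 without 12Gy_48h replicate 3 and 0 without 12Gy_48h replicate 1 or 2. The count higher was 2 without 12Gy_24h replicate 2 or 3. Mki67, the proliferation marker Ki-67, had 23.6, 28.3 and 28.3 CPM at 12Gy_48h, against 15.3, 18.6 and 14.5 CPM at 12Gy_24h, a log2 fold change of 0.73 ± 0.16 (SE, adjusted p = 0.00319). Pttg1, which encodes securin, rose by 0.56 log2 units (adjusted p = 0.00603). Of 28 recombination and checkpoint genes 2 were lower. They were Mre11a at -0.94 log2 units (adjusted p = 0.00366) and Blm at -0.56 log2 units (adjusted p = 0.0112). Mre11a overlaps Ankrd49 on the other strand and is uncertain for it. Of 14 end joining genes 1 was higher and 2 lower, with no call that held in both fits whichever library was left out. In both lists the shares lay below those of all known genes. Hist1h2bc, a histone H2B gene, rose by 1.32 log2 units (adjusted p = 0.00118).

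Immediate response genes were mostly higher where called. Of 24 tested NF-kB and immediate response genes 12 were higher and 3 lower, with a median of 0.65. Fos had 44.2, 54.6 and 65.7 CPM at 12Gy_48h, against 2.64, 10.9 and 6.95 CPM at 12Gy_24h, and Egr1 had 247, 257 and 184 CPM at 12Gy_48h, against 117, 111 and 112 CPM at 12Gy_24h. Neither gene had overlapping groups, and the log2 fold changes were 3.0 ± 0.39 (SE, adjusted p = 3.81e-05) and 1.01 ± 0.13 (SE, adjusted p = 2.87e-05). Jund, another AP-1 subunit, rose by 1.27 log2 units (adjusted p = 2.39e-05), and Myc had 53.8, 51.1 and 49.9 CPM at 12Gy_48h, against 91.5, 86.8 and 86.9 CPM at 12Gy_24h, a log2 fold change of -0.78 ± 0.13 (SE, adjusted p = 0.000452). Of 27 lysosome genes 9 were higher and 3 lower, with 3 higher without 12Gy_24h replicate 2 or 3, 4 without 12Gy_48h replicate 2 and 5 without 12Gy_24h replicate 1. Grn, which encodes progranulin, rose by 0.76 log2 units (adjusted p = 7.07e-05).

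Several genes of shape, adhesion and matrix were lower. Actg1, gamma actin, had 224, 223 and 331 CPM at 12Gy_48h, against 898, 953 and 1051 CPM at 12Gy_24h, a log2 fold change of -1.90 ± 0.19 (SE, adjusted p = 3.87e-06); its processed copies in the genome leave the share of its reads uncertain. Vim, vimentin, had 1239, 1133 and 1593 CPM at 12Gy_48h, against 2383, 2526 and 2127 CPM at 12Gy_24h, and Timp1, an inhibitor of metalloproteinases, had 228, 197 and 202 CPM at 12Gy_48h, against 511, 569 and 580 CPM at 12Gy_24h. The groups did not overlap in either, at -0.83 ± 0.21 log2 units (SE, adjusted p = 0.00634) and -1.40 ± 0.12 (SE, adjusted p = 1.02e-06). Of 13 tested mesenchymal genes 6 were lower and 1 was higher, with 0 higher without 12Gy_48h replicate 1 or 2 or 12Gy_24h replicate 1 or 3. With known genes alone 5 were lower and 3 higher, the 3 being Col1a1, Fn1 and Col5a1, named after their values were seen. Col1a1, a collagen I chain, had 15.1, 13.2 and 16.6 CPM at 12Gy_48h, against 7.65, 11.2 and 8.40 CPM at 12Gy_24h, at 0.72 log2 units (adjusted p = 0.0365), and Fn1 and Col5a1 were at 0.28 log2 units (adjusted p = 0.0529) and 0.36 log2 units (adjusted p = 0.0555) over all genes. Of 11 matrix genes 5 were lower and 0 higher, with 3 lower without 12Gy_48h replicate 1. With known genes alone 3 were lower and 1 higher, Timp2, named after its values were seen, at an adjusted p of 0.0394 in that fit. Plaur, the urokinase receptor, and Cdh2, N-cadherin, fell by 1.04 log2 units (adjusted p = 1.03e-05) and 0.99 log2 units (adjusted p = 0.000812). The summed level of 10 mesenchymal markers ran from 1573 to 2108 CPM at 12Gy_48h, against 2760 to 3129 CPM at 12Gy_24h. Vim made most of that sum, and Col1a1, one of the 10, was higher at 12Gy_48h. Pdgfrb, another, had 14, 8 and 7 reads at 12Gy_48h, against 3, 2 and 5 reads at 12Gy_24h. In a bulk sample fewer cells of a kind and less RNA per cell cannot be told apart. The summed level of 8 immune cell markers ran from 41.6 to 49.1 CPM at 12Gy_48h, against 24.8 to 40.9 CPM at 12Gy_24h, with 3 of the 8 at 0 in all 6 libraries.

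Markers of the fetal-like regenerative state of the gut moved both ways, 3 of 13 higher and 4 lower. Ly6a, the surface antigen Sca-1 and also an interferon-induced gene, had 38.0, 42.2 and 71.4 CPM at 12Gy_48h, against 6.06, 9.03 and 4.93 CPM at 12Gy_24h, a log2 fold change of 2.91 ± 0.33 (SE, adjusted p = 1.16e-05). Anxa2, annexin A2, had 768, 744 and 1047 CPM at 12Gy_48h, against 1498, 1748 and 1943 CPM at 12Gy_24h, a log2 fold change of -1.02 ± 0.15 (SE, adjusted p = 0.000108). Of 16 YAP targets 1 was higher and 2 lower, neither share above that of all known genes (9.97% and 15.6%). Ptpn14 rose by 0.92 log2 units (adjusted p = 0.000552), and Wwc1 and Ankrd1 fell by 1.36 log2 units (adjusted p = 0.00011) and 0.87 log2 units (adjusted p = 0.000223). Of 9 tested genes of epithelial adhesion 2 were higher and 2 lower, with 1 higher without each library other than 12Gy_24h replicate 3. Krt18, a keratin of simple epithelium, had 7.54, 5.82 and 7.27 CPM at 12Gy_48h, against 12.1, 17.0 and 15.7 CPM at 12Gy_24h, and Krt7, another, had 3.38, 3.54 and 4.93 CPM at 12Gy_48h, against 0.791, 1.09 and 1.74 CPM at 12Gy_24h. The first fell by 1.11 log2 units (adjusted p = 0.00705) and the second rose by 1.70 log2 units (adjusted p = 0.00306), without overlap. Itga6, a subunit of an integrin that binds laminin, had 14.6, 20.2 and 24.7 CPM at 12Gy_48h, against 42.2, 43.8 and 52.7 CPM at 12Gy_24h, a log2 fold change of -1.22 ± 0.20 (SE, adjusted p = 0.000251).

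The remaining large falls among known genes were of low level and mixed function. Arsj, of the arylsulfatase family, had 0.780, 1.77 and 2.08 CPM at 12Gy_48h, against 6.86, 10.1 and 8.11 CPM at 12Gy_24h, a log2 fold change of -2.41 ± 0.37 (SE, adjusted p = 0.000163). Flrt3 (a transmembrane adhesion protein), Dhrs9 (a retinol dehydrogenase), Bmper (a BMP-binding protein) and Mfap3l followed at -2.26, -2.23, -2.17 and -2.09. Cavin4 (of caveolae), the monocarboxylate transporter gene Slc16a11 and the magnesium transporter gene Nipal1 were at -1.99, -1.94 and -1.93. Their groups did not overlap and their adjusted p-values ran up to 0.00127. Csn3, which encodes kappa casein, was the remaining known gene among the 12 largest rises, with 30.7, 45.3 and 25.4 CPM at 12Gy_48h, against 3.43, 2.46 and 2.32 CPM at 12Gy_24h, a log2 fold change of 3.6 ± 0.39 (SE, adjusted p = 8.36e-06).

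**Figure D5:**
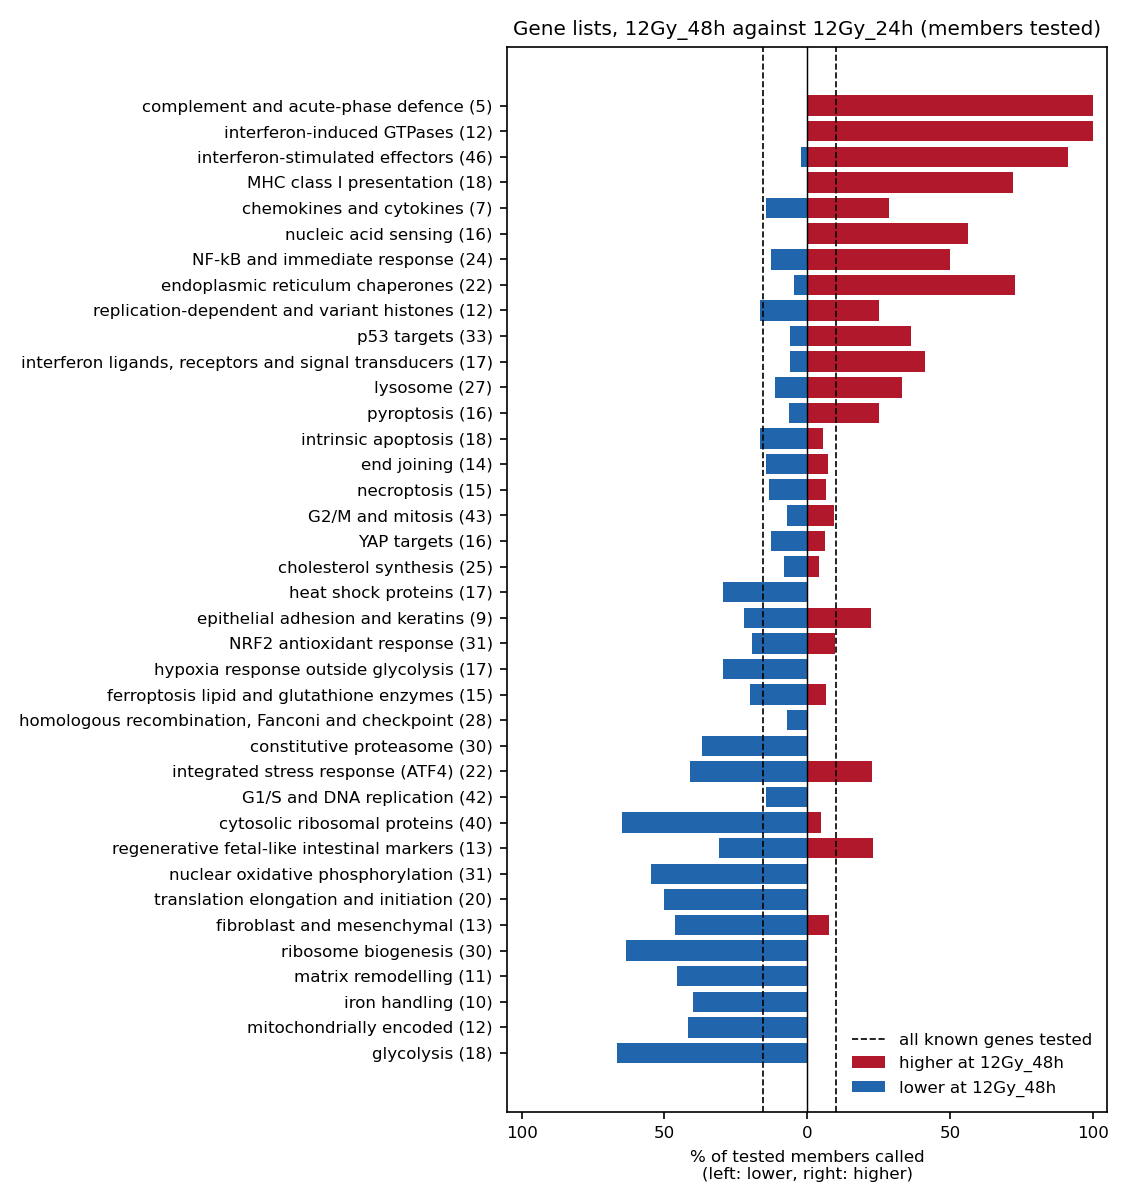
Percentage of the tested members of each list called higher (right) or lower (left) at 12Gy_48h, for lists with at least 5 tested members, ordered by their median log2 fold change. The dashed lines are the shares of all known genes, 9.97% higher and 15.6% lower; complement, the interferon-induced GTPases and the interferon-stimulated effectors lie at the top, with medians of 3.13, 2.99 and 1.71, and glycolysis at the bottom, with -0.59.

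New loci are described by classes set after the data were seen, from the matches the authors list for them. Of 4898 tested loci 3344 carried the KEGG match K11969, of which 1495 were higher and 27 lower, with a median of 0.95. They summed to 52710 ± 5141 CPM at 12Gy_48h and 32680 ± 947 CPM at 12Gy_24h (SD, n = 3 each). Of 1201 loci with a match other than K11969, a ribosomal protein or a retroelement 506 were higher and 40 lower, with a median of 0.95. Their summed level hardly differed, at 28580 ± 580 CPM at 12Gy_48h and 27770 ± 1792 CPM at 12Gy_24h. Of 235 loci with no match 51 were higher and 22 lower. The 89 loci matching a ribosomal protein did not share the rise: 15 were higher and 17 lower, with a median of -0.04. They summed to 48150 ± 300 CPM at 12Gy_48h and 57410 ± 1478 CPM at 12Gy_24h. Loci matching a retroelement or retrovirus were mostly lower where called: 18 of 29 were lower and 2 higher, with a median of -1.08. The 9 that match an envelope gene did not share this: 2 were higher and 2 lower, with a median of 0.31, and they summed to 339, 324 and 388 CPM at 12Gy_48h, against 241, 238 and 199 CPM at 12Gy_24h, without overlap. Those matching the intracisternal A particle, an endogenous retrovirus of rodents, summed to 1521, 1437 and 1381 CPM at 12Gy_48h, against 3101, 3209 and 3033 CPM at 12Gy_24h. They summed to 1300, 1469 and 1110 CPM at 4Gy_48h and 1002, 1256 and 1686 CPM in the controls, so that 12Gy_24h stood above the other 3 groups. Of these 14 loci 11 were lower and 0 higher. Under the naming rule ONT.5353 and ONT.5349 led the rises at 5.06 ± 0.92 log2 units (SE, adjusted p = 0.000694) and 4.53 ± 0.65 (SE, adjusted p = 9.15e-05), and ONT.16865 and ONT.16886 were among the falls at -3.02 ± 0.37 log2 units (SE, adjusted p = 2.51e-05) and -2.59 ± 0.34 (SE, adjusted p = 4.90e-05). ONT.8827 had 84 reads at 12Gy_48h and 3 at 12Gy_24h, a depth-scaled ratio of 29.5 with a 95% counting interval of 9.76 to 146. ONT.16771, the steepest fall, had 0.520, 1.26 and 0 CPM at 12Gy_48h, against 26.6, 21.4 and 15.1 CPM at 12Gy_24h.

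The other groups put these values beside the unirradiated cells and the lower dose. The comparisons with control share the same 3 control libraries, so their values are given side by side only. Zbp1 averaged 67.5 ± 9.93 CPM at 12Gy_48h, 5.28 ± 1.53 at 12Gy_24h, 35.8 ± 9.79 at 4Gy_48h and 8.31 ± 1.67 in the controls (SD, n = 3 each). Tfrc averaged 15.5 ± 0.403 CPM at 12Gy_48h, 61.6 ± 2.50 at 12Gy_24h, 14.6 ± 3.89 at 4Gy_48h and 10.7 ± 4.49 in the controls. Ldha averaged 779 ± 53.8 CPM at 12Gy_48h, 1614 ± 212 at 12Gy_24h, 1103 ± 29.0 at 4Gy_48h and 856 ± 219 in the controls, and Hspa5 averaged 1290 ± 325 CPM at 12Gy_48h, 424 ± 43.0 at 12Gy_24h, 521 ± 38.8 at 4Gy_48h and 789 ± 324 in the controls. In Zbp1 the 12Gy_48h group had the highest mean and 12Gy_24h the lowest, in Tfrc and Ldha 12Gy_24h had the highest mean, and in Hspa5 12Gy_48h had the highest and 12Gy_24h the lowest. The median log2 fold change of the 46 interferon-stimulated effectors against control was 1.32 at 12Gy_48h, -0.18 at 12Gy_24h and 1.06 at 4Gy_48h. That of the 18 glycolysis genes was 0.47 at 12Gy_48h, 0.95 at 12Gy_24h and 0.49 at 4Gy_48h.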

How the data were processed

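RNA of 12 libraries was measured, and the authors deposited 1 table with read counts per gene and library, and CPM beside them. Per the submitters' processing notes cutadapt 1.9 and FastQC were used; no aligner, counter, build or use of strand is named there, in the labels or in the file header. The deposited counts are whole reads, not normalized; the deposited CPM values are counts scaled to the library total, and differed from the same ratio of the counts by at most 4.78e-06. The authors' own test columns were not used. The table held 33625 genes after 11 overflow lines were set aside, with 3616416 to 4831641 reads per library. At this depth low genes rest on a few reads, and intervals cover counting error only.

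Counts were fitted with edgeR 4.0.16 (R 4.3.3, limma 3.58.1), with 1 mean per group over all 12 libraries, filterByExpr, TMM scaling and the quasi-likelihood test, and p-values were adjusted by Benjamini-Hochberg over 15086 genes. Known genes were also scaled and tested alone. Exact two-sided permutation tests served single values. In counts simulated for this comparison over 15086 genes, 20.7% of genes changed 1.5-fold, 44.7% of those changed 2-fold, 82.7% of those changed 4-fold and 86.7% of those changed 8-fold were recovered, with at most 5 false calls in 3 draws. The simulation changed 200 genes, up or down at random. Otherwise every group had the 12Gy_24h profile, with a spread set by mean level alone. It held no shift to 1 side like that of the new loci, so its false calls do not measure those of the real comparison. No pair of replicates agreed within sampling noise. Alternatives were RLE scaling, DESeq2 1.42.0, no filter on low counts, a filter at a group mean of 5 CPM, the 6 libraries alone, a replicate block and leaving out each library. Tables were made with Python 3.11.15 and pandas 2.3.3.

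The members and the 42 gene lists were chosen with earlier results of these data known. Named are the 12 largest rises and 12 largest falls among known genes called in both fits, without overlap and with a mean of at least 5 CPM in the higher group; in each list, the 4 called members with the smallest adjusted p, or fewer where fewer were called; a set of genes in every case; and the 3 largest rises and falls of new loci. Others are marked as named after their values were seen. Some genes under this rule are not reported here. Of 22036 known gene IDs 22022 matched the reference annotation (GRCm38), which gave coordinates and promoters.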

Additional observations from a re-analysis of the deposited data

How the results depend on the processing

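Known genes scaled and tested alone gave 1090 higher genes in place of 3102 over all genes; 2069 of the 3102 were new loci, which that fit leaves out, and of the 1090 known genes 978 were also called higher over all genes and 112 were not. With 1 library left out, 2066 to 3058 of all genes were higher and 1190 to 1899 lower, and 602 to 1075 known genes alone were higher and 671 to 1149 lower. DESeq2 called 2212 of all genes higher and 1861 lower, and RLE scaling 2745 and 2213. The difference in the read share of new loci, 2.81 percentage points, ran from 2.6 to 3.16. Cdkn1a, not called, changed sign to -0.039 under RLE scaling and DESeq2 and to -0.045 with no filter, and had values from -0.055 to 0.043 with 1 library left out. Trp53, not called, changed sign to -0.006 and -0.012 in the same settings and had values from -0.093 to 0.119; the cause was not tested. Of 172 named genes tested 166 were called, and 137 kept the call with every library left out in turn; no called value changed sign. The median log2 fold change of all genes tested was 0.124, and 0.048 under RLE scaling. Replicate numbers showed no sign of pairing in the deviations of each library from its group mean (log2 CPM). Between same-numbered libraries these deviations had correlations of -0.00401, -0.0179 and -0.00781 over 10894 genes. Not every library correlated best with its own number. Such values cannot show that the numbers were unpaired. The replicate block called 2513 of all genes higher and 2013 lower, and 1208 known genes alone higher and 1110 lower, and among named genes it cost the call of C4b.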
